A study of Arabidopsis thaliana with 6 samples.

Results

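The RCI2/LTI6 family of Arabidopsis thaliana comprised 8 of the 33331 genes listed in the data: RCI2A (AT3G05880), RCI2B (AT3G05890), AT4G30650, AT4G30660, AT2G24040, AT4G28088, AT1G57550 and AT2G38905. The family was chosen by the measured evening rise of AT4G30650 in these libraries, and the other members were added as its homologues, so the difference between the time points is given for every member as a description with its SE and no p-value, and a count of members called is printed only beside the share of all genes. Transcripts of 6 members were above 0 in at least 1 library, and those of AT4G28088 and AT1G57550 were listed at 0 in all 6 libraries.

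RNA immunoprecipitation sequencing (RIP-seq) was performed to ask which transcripts are carried by the RNA-binding protein AtGRP7, a glycine-rich protein under the control of the circadian clock. All libraries came from AtGRP7::AtGRP7-GFP in grp7-1, plants in which a GFP fusion driven by the AtGRP7 promoter is expressed in a T-DNA mutant of the endogenous gene, after 16 days under alternating 12 h periods of light and darkness and a subsequent shift to continuous light. Aerial tissue, with several plants bulked per sample, was fixed with 1% formaldehyde at 36 h in continuous light (LL36, subjective dusk, 3 libraries) or at 24 h (LL24, subjective dawn, 3 libraries), and RNA bound to the fusion was recovered on GFP-Trap beads. The values are TPM, the abundance of each transcript per unit of its length relative to all transcripts of the library, and can therefore be compared between genes.

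RCI2 proteins are very small, highly hydrophobic polypeptides that span the plasma membrane, and relatives occur in fungi and many other organisms. In yeast, loss of the relative PMP3 hyperpolarises the plasma membrane and makes cells sensitive to salt. RCI2A and RCI2B take their name, Rare Cold Inducible, from the accumulation of their transcripts in plants exposed to cold, and these transcripts also respond to dehydration and abscisic acid.

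In the TAIR10.1 annotation 4 of the 8 genes lay in a pair of tandem arrangements. RCI2A (chr3:1755497-1756924) and RCI2B (chr3:1757440-1758807) lay on the minus strand of chromosome 3 with 515 bases between them. AT4G30650 (chr4:14954204-14955114) and AT4G30660 (chr4:14955373-14956171) lay on the plus strand of chromosome 4 with 258 bases between them. The predicted proteins fell into 2 length classes. RCI2A, RCI2B and AT2G38905 encoded 54 residues and AT1G57550 encoded 52, whereas AT4G30650, AT4G30660, AT2G24040 and AT4G28088 encoded 73, 74, 75 and 77. The longer proteins carried an additional, more polar carboxy-terminal end. Their last 20 residues had a mean hydropathy between -1.15 in AT4G28088 and 0.01 in AT4G30650 on the Kyte-Doolittle scale, against 1.5 in RCI2B to 2.02 in AT2G38905 among the shorter proteins. RCI2A and RCI2B were identical at 77.8% of aligned residues, as were RCI2A and AT2G38905. AT4G30650 and AT4G30660 were identical at 74.0%, and AT4G30660 and AT2G24040 at 75.7%.

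The 250 bases upstream of the annotated start are shown for the members with the highest levels and for AT2G38905, which shares a clock-related motif with the chromosome 4 pair (TAIR10.1, 5′ to 3′ on the strand of the gene). Capitals mark the evening element AAAATATCT, a motif known from promoters of evening-phased Arabidopsis genes, the G-box CACGTG, the ABRE core ACGTG of abscisic acid responses, and the CRT/DRE core CCGAC of cold and drought responses, which reads GTCGG on the other strand.
AT4G30650, chr4:14953954-14954203, plus strand: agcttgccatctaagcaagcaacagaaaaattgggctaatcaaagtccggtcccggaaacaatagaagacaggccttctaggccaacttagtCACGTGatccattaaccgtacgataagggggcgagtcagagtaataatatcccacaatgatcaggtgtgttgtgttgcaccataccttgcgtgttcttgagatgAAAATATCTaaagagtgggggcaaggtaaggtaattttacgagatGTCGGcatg
AT4G30660, chr4:14955123-14955372, plus strand: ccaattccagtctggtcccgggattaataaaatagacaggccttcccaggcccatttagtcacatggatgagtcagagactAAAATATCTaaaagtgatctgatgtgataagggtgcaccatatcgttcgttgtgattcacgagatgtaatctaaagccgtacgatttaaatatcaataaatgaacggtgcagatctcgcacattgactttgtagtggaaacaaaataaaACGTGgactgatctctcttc
RCI2A, chr3:1756925-1757174, minus strand: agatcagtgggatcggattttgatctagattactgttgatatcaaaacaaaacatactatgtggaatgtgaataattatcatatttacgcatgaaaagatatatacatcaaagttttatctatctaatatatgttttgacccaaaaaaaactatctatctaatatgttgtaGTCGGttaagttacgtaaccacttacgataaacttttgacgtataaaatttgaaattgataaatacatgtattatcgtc
AT2G38905, chr2:16244532-16244781, minus strand: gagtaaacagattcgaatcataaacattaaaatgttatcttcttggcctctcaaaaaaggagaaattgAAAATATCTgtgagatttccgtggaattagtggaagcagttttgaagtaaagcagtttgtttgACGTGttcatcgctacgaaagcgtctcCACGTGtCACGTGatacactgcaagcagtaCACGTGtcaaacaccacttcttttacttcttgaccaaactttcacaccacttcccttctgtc

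In the window of 300 bases that ran from 250 bases before to 50 bases after the start, 7 members were examined. The evening element was present in AT4G30650, AT4G30660 and AT2G38905 and in none of the other 4. It began 54, 169 and 182 bases upstream of the start in these genes. The same 9 letters occurred, on either strand, in 2.82% of the 27443 windows of this length in the genome. A G-box occurred in AT4G30650 and in 3 copies in AT2G38905, against 7.68% of all windows. The ABRE core, which is part of every G-box, occurred in 4 members, the 3 with an evening element and AT1G57550, against 26.7% of all windows. The CRT/DRE core occurred in RCI2A, 79 bases upstream, and in AT4G30650, 9 bases upstream, against 15.0% of all windows. AT2G24040 and AT4G28088 held none of these motifs, and the CCA1-binding site AAAAATCT, found in 7.88% of all windows, was in none of the 7. The upstream stretches of AT4G30650 and AT4G30660 shared no identical run longer than 12 bases, and a run of 12 was also found between RCI2A and AT1G57550. These matches describe the sequence and do not show that a factor binds there.

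**Figure D1:**
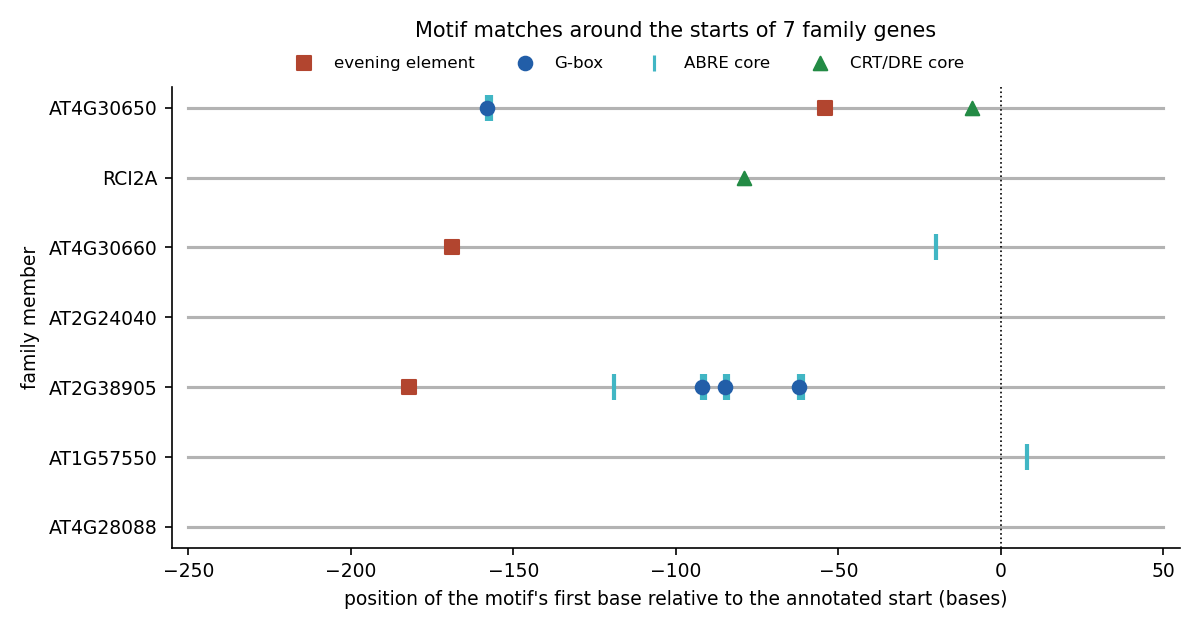
Matches to the motifs in the windows around the annotated starts of 7 family genes. The x axis gives the position of the first base of each match relative to the start (dotted line) and each row is a gene. AT4G30650, AT4G30660 and AT2G38905 carry an evening element, and AT2G24040 and AT4G28088 carry no match.

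The 6 libraries listed 9.595 to 16.6% of the full TPM sum of 1000000 and held 513 to 934 genes at 5 TPM or more. LL36 replicate 3 had the lowest of both, and its scaling factor was 0.615 against 0.927 to 1.26 for the other libraries. Deposited TPM were therefore divided by these factors (scaled TPM) for comparisons between libraries. AtGRP7 itself (AT2G21660), whose row cannot separate the transgene from the endogenous transcript, had 231 ± 24.3 scaled TPM at LL36 and 3.09 ± 0.394 at LL24 (SD, n = 3 each). This was a log2 difference of 5.82 ± 0.13 (SE, limma adjusted p = 1.7e-05 in the fit without a limit on TPM). At a mean of 5 TPM or more it would pass only through its LL36 values. The 4 leaf markers RBCS1A, CAB1, CA1 and RCA summed to 1908 to 3690 deposited TPM per library at LL36 and 3886 to 4628 at LL24, and the 4 root markers PYK10, EXPA7, TIP2;3 and CASP1 to 0.613 to 1.25 at LL36 and 1.24 to 2.21 at LL24, with EXPA7 at 0 in all libraries. These sums are of deposited TPM and carry the low LL36 replicate 3. After scaling, CAB1 had 1869 ± 48.2 at LL36 and 1875 ± 221 at LL24. The others were lower at LL36, with means of 1174 against 1707 (RBCS1A), 23.2 against 58.7 (CA1) and 39.45 against 132.7 (RCA). The leaf markers thus did not move alike with the time point, and their part in the results was not tested.

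AT4G30650, a longer-tailed member of the chromosome 4 tandem pair, was the most abundant family transcript at LL36. Its deposited values were 33.1, 39.6 and 21.8 TPM in the LL36 libraries, against 3.27, 2.16 and 3.12 TPM in the LL24 libraries. After scaling they were 31.96, 34.5 and 35.5 at LL36, against 2.798, 2.33 and 2.47 at LL24. The lowest LL36 library was above the highest LL24 library on either scale. LL36 replicate 3, the library with the lowest factor, had the lowest deposited value of its group and the highest scaled one. The scaled means of 34.0 ± 1.85 at LL36 and 2.53 ± 0.24 at LL24 (SD, n = 3 each) stood in a ratio of 13.4, and the log2 difference of scaled TPM + 1 was 3.31 ± 0.10 (SE). By mean deposited TPM the gene was at rank 106 of all genes at LL36 and at rank 1353 at LL24.

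AT4G30660, its tandem neighbour, showed the second-largest difference of the family. It had 10.5, 8.71 and 5.78 deposited TPM at LL36, against 1.03, 1.06 and 1.13 at LL24. The groups did not overlap. The scaled means were 9.06 ± 1.33 at LL36 and 0.975 ± 0.146 at LL24, a ratio of 9.29. The log2 difference was 2.34 ± 0.12 (SE) with the pseudocount of 1 and 3.09 ± 0.15 with a pseudocount of 0.1, because a pseudocount of 1 compresses the differences of transcripts near 1 TPM. With a mean of 4.71 deposited TPM over the 6 libraries this gene lay just under the limit of 5 TPM that was set for the test across genes.

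RCI2A, a plasma membrane protein of the shorter class, was the most abundant family transcript at LL24. Its deposited values were 25.003, 24.8 and 13.8 TPM at LL36, against 6.28, 3.70 and 6.37 TPM at LL24, and scaled values were 24.1, 21.6 and 22.4 at LL36, against 5.37, 4.00 and 5.04 at LL24. The groups did not overlap on either scale. The scaled means of 22.7 ± 1.29 at LL36 and 4.80 ± 0.718 at LL24 stood in a ratio of 4.73, with a log2 difference of 2.04 ± 0.12 (SE). This ratio was below those of the chromosome 4 pair.

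RCI2B, the tandem neighbour of RCI2A, did not show this pattern. It had 0.309, 0.321 and 0.228 deposited TPM at LL36, against 0.655, 0.201 and 0.580 at LL24. The groups overlapped. The log2 difference was -0.09 ± 0.09 (SE), and -0.24 ± 0.27 with a pseudocount of 0.1. At LL36 the RCI2B level was 0.0123, 0.013 and 0.0166 of the RCI2A level in the same libraries, against 0.104, 0.0542 and 0.0911 at LL24.

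AT2G24040, a longer-tailed member closest in sequence to AT4G30660, had lower scaled values at LL36 but was not called in the fit without a limit. It had 0.782, 0.513 and 0.314 deposited TPM at LL36, against 1.14, 0.781 and 1.30 at LL24. The groups overlapped slightly in the deposited values and did not overlap after scaling, with means of 0.571 ± 0.163 at LL36 and 0.949 ± 0.0952 at LL24. The log2 difference was -0.31 ± 0.08 (SE), and -0.67 ± 0.19 with a pseudocount of 0.1.

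AT2G38905, a shorter-class member, was close to 0 throughout, with 0, 0.112 and 0.0798 deposited TPM at LL36 and 0, 0.119 and 0.206 at LL24. Its log2 difference of -0.03 ± 0.07 (SE) changed sign when LL24 replicate 3 or LL36 replicate 1 was left out. AT4G28088 and AT1G57550 were listed at 0 at LL36 and at LL24, and no fold is given for them.

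**Figure D2:**
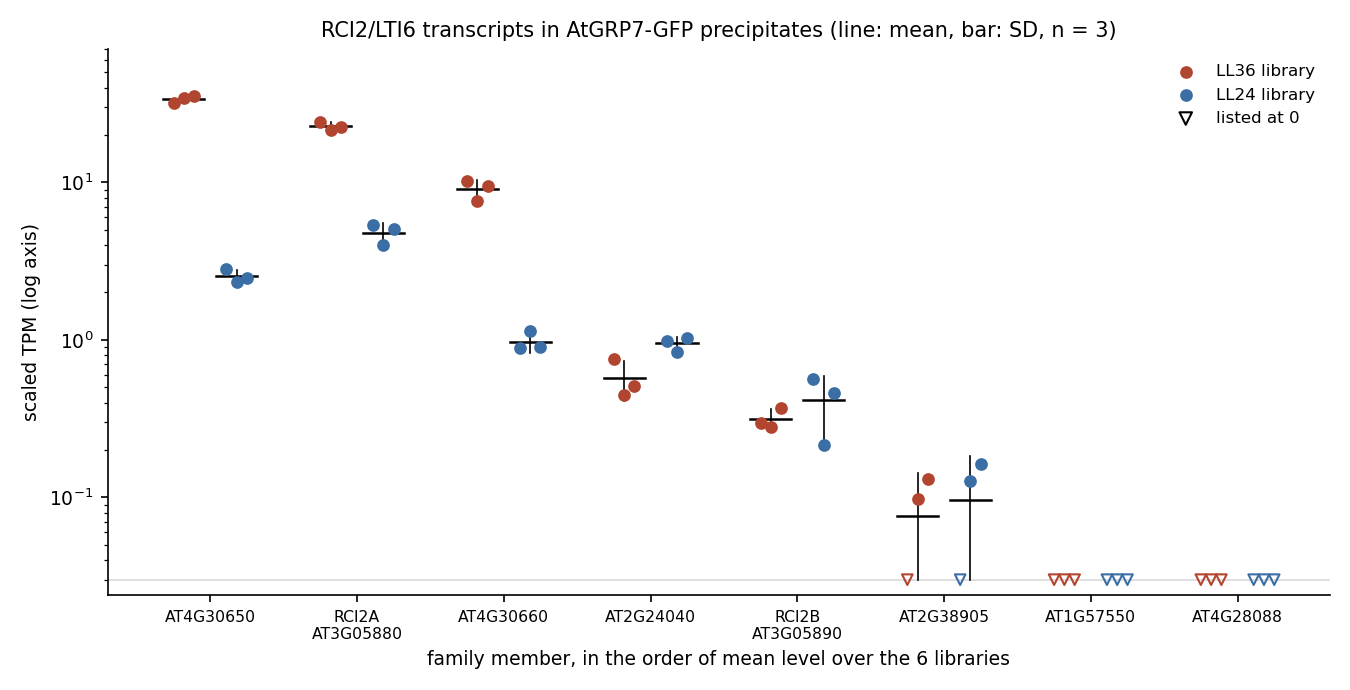
Scaled TPM of the 8 members on a log axis, with LL36 libraries to the left of LL24 libraries for each gene. Points are libraries, lines are means and bars are SD over 3 libraries (drawn no lower than the line for values listed at 0). AT4G30650, RCI2A and AT4G30660 are higher in every LL36 library than in any LL24 library, and the remaining members lie below 1.1 TPM.

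Across genes, 2 of the 8 members passed the limit of a mean of 5 TPM, AT4G30650 and RCI2A, and AT4G30650 passed only through its LL36 values and thus had to differ. Among the 789 genes tested, limma called 19.9% higher and 24.1% lower at LL36. The 2 members were among those called higher, which their choice fixed for AT4G30650. Without the limit, 6 members entered the fit and 3 were called higher (AT4G30650, AT4G30660 and RCI2A), against 2.58% of 22084 genes higher and 6.09% lower. By the plain criterion that the scaled values of the time points do not overlap, the same 3 members were higher, against 9.22% of the 22084 genes, and AT2G24040 was lower, against 18.2%. The contrast led to the choice of the family, so nothing is read from these counts. Of the genes called among the 789, 45.2% were higher at LL36. The share of higher calls was 19.8% on the deposited TPM and 59.7% when the factors were recomputed without the 10 most abundant genes, and these scalings moved the median difference over the 789 genes to -0.26 and 0.11 on the log2 scale, against 0.02 with the factors used. AT4G30650, AT4G30660 and RCI2A were higher at LL36 on the deposited TPM too, by 3.05, 2.14 and 1.76 on the log2 scale, which is to be read against that median of -0.26.

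**Figure D3:**
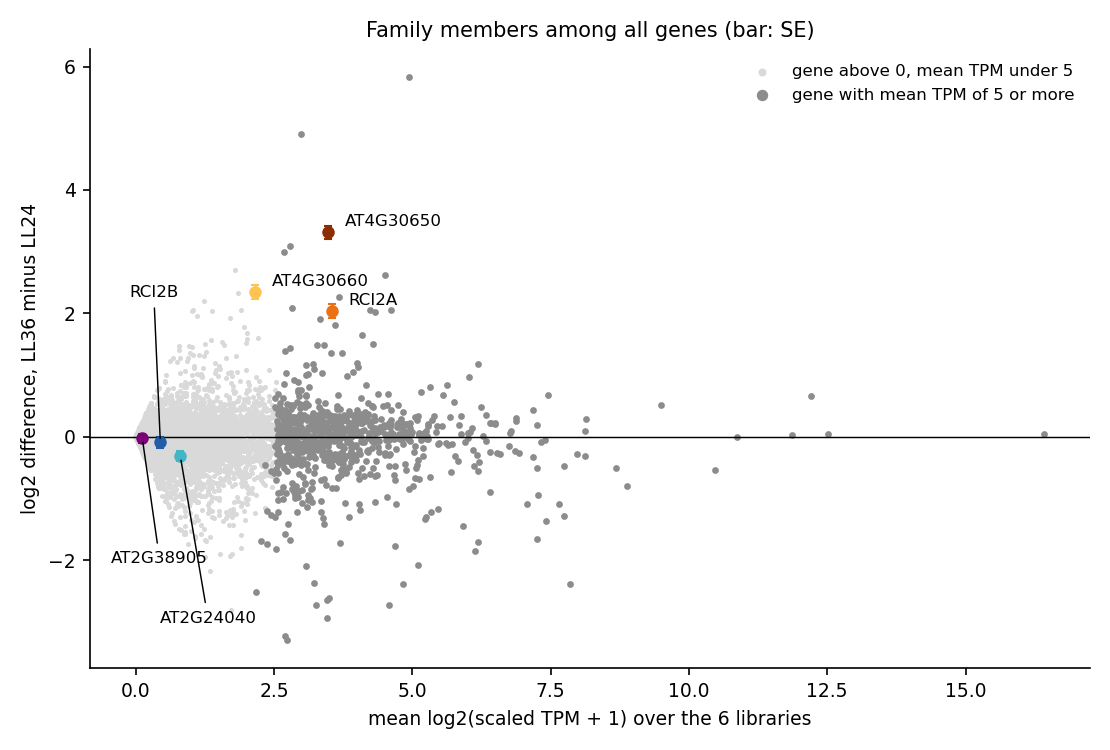
Log2 difference LL36 minus LL24 against the mean log2(scaled TPM + 1) over the 6 libraries for all 22084 genes above 0. Coloured points with SE bars are the 6 measured family members. AT4G30650 (3.31), AT4G30660 (2.34) and RCI2A (2.04) lie in the upper part of the cloud, and RCI2B, AT2G24040 and AT2G38905 lie near or below 0 among transcripts of low level.

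The composition of the family, which does not depend on the scaling between libraries, differed between the time points. This is a description, because the rise of AT4G30650 that chose the family enters its share. Shares within a library are tied to one another, so nothing is read from the shifts of the other members. The summed family level was 66.7 ± 1.97 scaled TPM at LL36 and 9.77 ± 1.00 at LL24, a ratio of 6.83. AT4G30650 made up 47.5, 53.5 and 52.0% of the deposited family TPM in the LL36 libraries, against 26.4, 26.9 and 24.6% in the LL24 libraries. RCI2A made up 35.9, 33.5 and 32.7% at LL36, against 50.7, 46.2 and 50.1% at LL24, although its own level was higher at LL36. The order of these leading members was thus exchanged, with an AT4G30650 to RCI2A ratio of 1.32, 1.60 and 1.59 at LL36 and 0.521, 0.583 and 0.490 at LL24. AT4G30660 kept a more similar share, 15.1, 11.8 and 13.8% at LL36 and 8.36, 13.2 and 8.90% at LL24. Within its tandem pair it stood at 0.318, 0.220 and 0.265 of AT4G30650 at LL36 and at 0.317, 0.491 and 0.362 at LL24, where the lowest LL24 ratio lay inside the LL36 range. AT2G24040 and RCI2B together with AT2G38905 made up the rest. AT2G24040 contributed 0.854 ± 0.234% at LL36 and 9.72 ± 0.498% at LL24 (SD, n = 3 each).

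**Figure D4:**
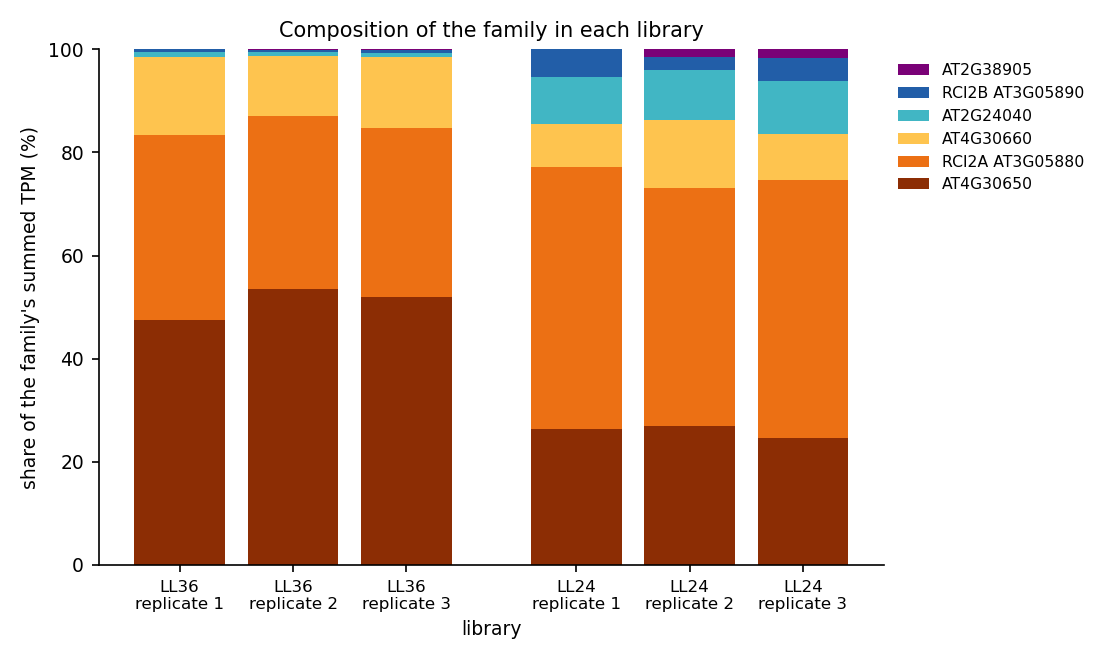
Share of each measured member in the summed TPM of the family, in percent, for the 3 LL36 libraries (left) and the 3 LL24 libraries (right). AT4G30650 takes 47.5 to 53.5% at LL36 and 24.6 to 26.9% at LL24, and RCI2A takes 32.7 to 35.9% at LL36 and 46.2 to 50.7% at LL24.

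Averaged over the 6 libraries, the order of levels was AT4G30650 (17.2 deposited TPM), RCI2A (13.3), AT4G30660 (4.71), AT2G24040 (0.805), RCI2B (0.382) and AT2G38905 (0.0861), followed by the members listed at 0. This mean contains the LL36 values, and AT4G30650 came first only through them. Neighbours in this order were compared by an exact two-sided sign-flip permutation test of the within-library log2 ratios with a pseudocount of 0.1, whose smallest possible p over 6 libraries is 0.0312. The 7 pairs include the 2 members listed at 0 in every library, a pair with no value to compare. RCI2A exceeded AT4G30660 in 6 of 6 libraries (mean log2 ratio 1.76 ± 0.56, SD, exact p = 0.0312, adjusted p = 0.0729 over 7 pairs). AT2G24040 exceeded RCI2B (0.88 ± 0.44) and RCI2B exceeded AT2G38905 (1.40 ± 0.90), also in 6 of 6 libraries with the same exact p and adjusted p. None of the pairs passed after adjustment over 7 pairs, nor over the 6 pairs with a value (smallest adjusted p = 0.0625, exact test). The pairs with AT1G57550 could not reach the smallest p because of values at 0. Over 7 pairs, none could pass unless every other pair reached it. The order also came from the values tested, so nothing is read from this outcome. Between AT4G30650 and RCI2A, where the values that chose the family set the order, the log2 ratio is a description. It was 0.58 ± 0.15 in the LL36 libraries and -0.89 ± 0.13 in the LL24 libraries (SD, n = 3 each). The difference between AT4G30660 and AT2G24040 did not pass either (1.89 ± 2.05, higher in 4 of 6 libraries, exact p = 0.125, adjusted p = 0.175). Their levels were close at LL24 and far apart at LL36, where AT2G24040 had 0.0742, 0.0588 and 0.0544 of the AT4G30660 level, against 1.103, 0.737 and 1.15 at LL24.

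Some members share their position with other genes, and the library kit used does not mark the strand. RCI2A overlapped APC11 (AT3G05870) on the opposite strand, which had 0.161 deposited TPM at LL36 and 0.189 at LL24 on average. The RCI2A gene also contained AT3G01795 and the AT4G30660 gene AT4G08305, annotated non-coding RNAs on the opposite strand that were not among the genes listed. In the TAIR10.1 annotation neither shared a 100-nt stretch with the spliced transcripts of these members. Shorter overlaps and reads from unspliced RNA were not examined. AT4G30660 overlapped AT4G30662 on the opposite strand, and 27.4% of its 100-nt stretches also occurred there. AT4G30662 had 0.026 TPM at LL36 and was listed at 0 at LL24 in all libraries. Reads from the shared stretch cannot be told apart by strand. AT2G38905 shared 5.67% of its stretches with AT2G38900, which was listed at 0. No 100-nt stretch was shared between family members.

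AtGRP7 is known to bind many of its targets in the 3′ untranslated region. The authors found motifs near its sites that were generally rich in uridine and cytidine, with the 3′ motif differing most from the others. The pyrimidine content of these regions was 57.0% in RCI2A, 58.5% in RCI2B, 50.7% in AT4G30650 and 58.6% in AT4G30660. It was 49.1% in AT2G24040, 62.4% in AT2G38905, 54.6% in AT1G57550 and 69.1% in AT4G28088. The median over 23111 genes was 52.3%, with quartiles of 49.2 and 55.6%. The members that were higher at LL36 lay on either side of this median.

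The genes whose pattern over the 6 libraries was most like that of the 2 members above the limit were found by the root mean square difference of centred log2(scaled TPM + 1) values among the 788 other genes tested. For AT4G30650 they were COR15B (AT2G42530; 0.189), which encodes a cold-regulated protein of the chloroplast stroma, CCL (AT3G26740; 0.200) and KIN2 (AT5G15970; 0.349), a cold- and abscisic acid-inducible gene, against a median of 1.66 over all. Their log2 differences were 3.001, 3.09 and 2.63. For RCI2A they were GASA4 (AT5G15230; 0.159), a gibberellin-regulated gene, CCR1 (AT4G39260; 0.162), which encodes AtGRP8, the closest relative of AtGRP7, and AT2G15960 (0.165), against a median of 1.03. Their log2 differences were 2.06, 2.09 and 2.02. These are descriptions of likeness over 6 libraries at 2 time points. The measure contains the difference between the time points that chose the family, so similar log2 differences follow from it by construction. COR15B, CCL and CCR1, with 1.25, 1.37 and 2.44 scaled TPM at LL24, passed the limit only through their LL36 values.

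Because RCI2 transcripts are known to accumulate in the cold, 21 cold- and dehydration-responsive genes and their regulators were examined at the same time points. Of these, 4 passed the limit of 5 TPM and were called higher at LL36, against 19.9% of the 789 genes. Their median log2 difference was 1.99, against 0.02 over the 789 genes. COR15B passed the limit only through its LL36 values and thus had to differ, so this count and median are a description. KIN2 had 55.8 ± 3.77 scaled TPM at LL36 and 8.20 ± 0.66 at LL24 (log2 difference 2.63 ± 0.09, SE, limma adjusted p = 5.15e-07). COR15B had 17.1 ± 1.33 at LL36 and 1.25 ± 0.148 at LL24 (3.001 ± 0.10, SE, adjusted p = 3.05e-05 in the fit without a limit). Its relative COR15A had 20.1 ± 0.301 at LL36 and 7.27 ± 0.904 at LL24 (1.36 ± 0.09, adjusted p = 2.29e-05). COR413-PM1, a cold-regulated membrane protein, had 9.32 ± 0.722 at LL36 and 4.59 ± 0.233 at LL24 (0.88 ± 0.09, adjusted p = 0.000135). On the deposited TPM 3 of these 4 passed.

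Without the limit, 11 of the 21 cold-list genes rose, against 2.58% of the 22084 genes, and 1 fell, against 6.09%. The other 9 did not pass. The median was 0.40, against -0.0048 over all 22084 genes. Only 2807 of these genes had a mean of 1 TPM or more, and a pseudocount of 1 compresses differences below that. With a limit of 1 TPM, 9 of 11 cold-list genes were higher, against 411 of 2807 genes. The list was chosen with earlier results of these data known, so these counts are a description. The cold-list genes of low level named here were chosen after their values were seen. COR28 had 4.05 ± 0.551 scaled TPM at LL36 and 0.0959 ± 0.153 at LL24. COR27 had 1.86 ± 0.228 at LL36 and 0.0305 ± 0.0227 at LL24. COR27 and COR28 encode regulators that link the cold response with the clock. CBF1, a transcription factor that binds the CRT/DRE, had 0.156 ± 0.071 at LL36 and 0.00826 ± 0.00818 at LL24. Its call was lost without any single LL24 replicate or without LL36 replicate 3 (limma adjusted p = 0.0673 to 0.113). CBF2, CBF3 and ICE1, which act in the same pathway, did not pass. RD29B was the gene that fell, at 0.0241 ± 0.0143 scaled TPM at LL36 and 0.0912 ± 0.0156 at LL24, whereas RD29A next to it rose. The call of RD29B was lost without LL24 replicate 1 or 3 or any single LL36 replicate (limma adjusted p = 0.0515 to 0.112). RAB18, a dehydrin induced by abscisic acid, had 1.33 ± 0.511 at LL36 and 2.02 ± 0.328 at LL24 and did not pass (limma adjusted p = 0.244).

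**Figure D5:**
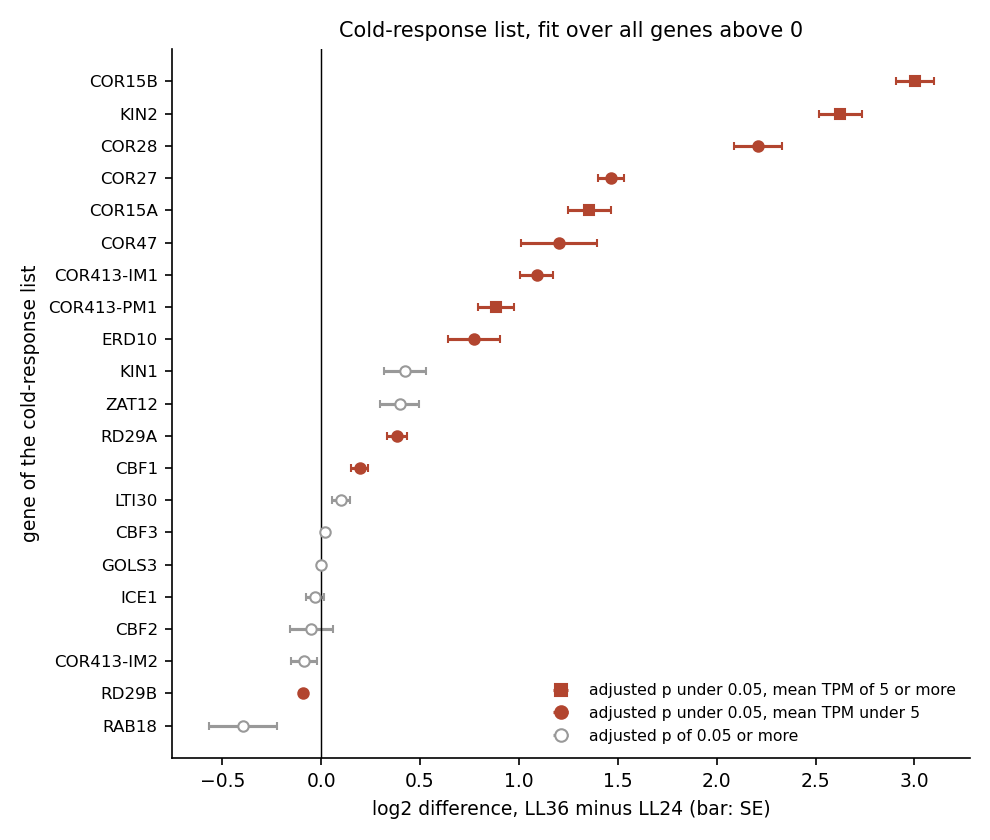
Log2 difference LL36 minus LL24 with SE for the 21 genes of the cold-response list in the fit over all genes above 0. Squares are genes with a mean of 5 TPM or more and filled symbols passed the adjusted threshold. The largest value is that of COR15B (3.001) and RD29B is the filled symbol below 0.

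Genes of membrane ion transport were examined because the yeast relative is known for this process. None of the 11 genes reached a mean of 5 TPM. Without the limit 10 were measured, with a median log2 difference of -0.0039. None rose and 1 of the 10 fell, against 6.09% of the 22084 genes called lower. It was the potassium channel gene KAT1, chosen here after its value was seen, which had 0.0272 ± 0.0174 scaled TPM at LL36 and 0.0991 ± 0.0139 at LL24 (limma adjusted p = 0.0225). This call was lost when LL24 replicate 1 or 3 or LL36 replicate 2 or 3 was left out (limma adjusted p = 0.0518 to 0.103). The H+-ATPase genes AHA1, with 3.86 ± 0.307 at LL36 and 3.61 ± 0.761 at LL24, and AHA2, with 0.86 ± 0.156 at LL36 and 0.588 ± 0.0112 at LL24, did not pass (adjusted p = 0.747 and 0.0919).

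All these values are levels in the precipitate, and no RNA-seq of unprecipitated RNA was used here. The amount of a transcript in the tissue and the fraction of it bound by AtGRP7 cannot be told apart from them, nor can fewer cells of a type be told apart from less RNA per cell. The precipitated protein itself was encoded by a transcript that was higher at LL36, and the part of this in the results was not tested.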

How the data were processed

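Total RNA recovered from AtGRP7-GFP precipitates was sequenced with 100-nt single-end reads on libraries made without poly(A) selection. The authors trimmed the reads and mapped them with STAR 2.5.2a to the Arabidopsis reference transcriptome atRTD (genome build TAIR10). They estimated abundances with Salmon 0.8.2, summed them per gene, left out rRNA and organellar genes, and deposited TPM values per gene. The gene models read here for lengths, overlaps and shared stretches were those of TAIR10.1, which can differ from those of atRTD. TPM hold no read depth, so no counting intervals are given. The table also held 6 columns named for Col-2 that match no sample given for the series. They were not used. Of 33331 gene IDs, 32811 matched TAIR10.1. No 2 libraries held identical values.

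Deposited TPM were divided by a trimmed-mean factor per library (30% of ratios and 5% of levels trimmed) over the 789 genes with a mean of 5 TPM or more, and log2(scaled TPM + 1) was fitted by time point with limma 3.58.1 (R 4.3.3, eBayes with trend, two-sided, Benjamini-Hochberg adjustment over all genes tested, threshold 0.05). Fold changes on this scale understate the change of low transcripts. SEs of members come from the same fit without the limit, since most members lie under it; SEs and p-values of list genes in the test at the limit come from that test. The labels only number the replicates, and the authors describe them as biological. A limma p-value sets the difference between the time points against the spread between libraries of the same time point, moderated across genes.

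Members, gene lists and tests were chosen with earlier results of these data known. The genes named are the members, list genes above the limit, the 3 genes most like each member above the limit, AtGRP7 and tissue markers, besides those said to be chosen after their values were seen. Sequences, motif shares, translated lengths and identities were read from the TAIR10.1 genome and annotation (Biopython 1.88); a ready promoter table had been planned, and the windows were built from the genome instead. The upstream window of 1 member is not reported here. Alternatives varied the scaling, pseudocount, limit, trend, replicate block and library set.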

Additional observations from a re-analysis of the deposited data

How the results depend on the processing

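The count of 2 members called (RCI2A and AT4G30650) includes AT4G30650, whose rise chose the family and which passed the limit only through LL36, so its recurrence over the settings supports nothing. On TPM rescaled so that the listed genes reach the full sum, all 4 members tested were called (AT2G24040 lower at LL36). So were 10 of 12 cold-list genes and 1 of 2 ion-transport genes, against 626 genes higher and 740 lower of 3774. With a limit of 1 TPM, all 3 members tested and 9 of 11 cold-list genes were called. Over all 2807 genes, 411 were then higher and 631 lower. With no limit, 3 of 6 members, 12 of 21 cold-list genes and 1 of 10 ion-transport genes were called. Over all 22084 genes, 569 were then higher and 1345 lower. Leaving out 1 library gave 2 to 3 members, 4 cold-list genes, 0 ion-transport genes and 0 neighbouring pairs. Over all genes, 109 to 127 were then higher and 151 to 183 lower, of 751 to 834 tested. The additional member was AT4G30660, tested only when an LL24 library was left out. Its mean then reached the limit of 5 TPM through its LL36 values, so it had to differ. With 5 libraries the smallest exact p is 0.0625, so no pair could pass there. Without the limit, leaving out LL36 replicate 1 added AT2G24040 (4 of 6 members called), against 379 genes higher and 736 lower of 21812. Leaving out any 1 library in that fit gave 9 to 12 cold-list genes, against 1115 to 1539 genes called of 21763 to 21923. No setting reversed the difference of any member except AT2G38905, which was 0.0154 without LL24 replicate 3 and 0.0251 without LL36 replicate 1 (-0.0907 to 0.0251 over the left-out libraries). The difference of AT4G30650 ranged over 2.37 to 3.74, of AT4G30660 over 1.23 to 3.10 and of RCI2A over 1.501 to 2.27, lowest with a pseudocount of 5 and highest on the full-sum scale.

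Over all genes, 347 of 789 were called in the main setting, 126 on deposited TPM, 1042 of 2807 with a limit of 1 TPM, 1914 of 22084 without a limit and 1366 of 3774 on the full-sum scale. Without a limit, 29.7% of calls were higher at LL36, and 43.6% with the factors taken over all genes above 0, an alternative chosen after seeing the data, as were the other repeats of the fit without a limit. The labels number the replicates alike at each time point. The deviations of same-numbered libraries correlated at 0.15, -0.08 and -0.21, within the range of differently numbered ones (-0.22 to 0.23). With 3 libraries per time point, these correlations cannot decide whether the numbers pair the libraries. A fit with the replicate number as a block called 298 of 789 genes, with 2 members, 4 cold-list genes and 0 ion-transport genes. The same block in the fit without a limit called 1039 of 22084 genes, against 1914 without it, with 3 members and 9 cold-list genes. No read depth is given by TPM, and values at or under about 1 TPM, as in the lower members, are the least certain.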
